A study of Macaca fascicularis with 10 samples.

Results

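Members of the fibroblast growth factor (FGF) signalling pathway, 6 genes in all, were followed across cynomolgus monkey (Macaca fascicularis) stem cells and labelled fibroblasts. They were the ligands FGF2 and FGF4, the feedback inhibitors SPRY4, DUSP5 and SPRED2, and the transcription factor ETV4. Members were all probe sets annotated with 1 of these 6 symbols, which gave 6 of the 14132 genes with a probe set of their symbol alone and 9 of the 52707 probe sets left after control probe sets were removed. FGF2, FGF4, SPRY4 and DUSP5 had 1 probe set each, ETV4 had 2 and SPRED2 had 3. One SPRED2 probe set was too dim to be tested, so 8 were tested, and each gene was read on its brightest probe set unless stated.

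Gene expression had been measured on 10 arrays of the Affymetrix Rhesus Macaque design, 1 per sample. Haploid embryonic stem cells (ESCs) from parthenogenetic blastocysts, which form from an egg without sperm (PG-haESCs), gave 5 arrays. Of these, 4 were titled line MPH1 (passages 8 and 11 under code M1, passages 7 and 9 under code M2) and 1 was titled line MPH2 (passage 4). Diploid ESCs from blastocysts made by intracytoplasmic sperm injection (ICSI ESCs) gave 3 arrays, of line MES1 at passage 12 and lines MES2 and MES3 at passage 4. Diploid cells labelled female somatic fibroblasts gave 2 arrays of 1 source, MF, at passages 14 and 15. Per the labels, PG-haESCs were grown on feeder cells with Y27635 and Thiazovivin. The labels do not tie arrays of a line to separate cultures, so p-values measure the spread between these arrays, which may be partly technical, and the small number of arrays limits every value.

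Marker genes were checked first. Across 9 measured pluripotency markers the mean log2 signal was 11.96 to 12.61 on PG-haESC arrays, 11.66 to 12.26 on ICSI ESC arrays and 5.88 to 6.61 on MF arrays. POU5F1, SOX2 and LIN28B lay below the array median on both MF arrays, while NANOG and DNMT3B lay above it. The geometric mean of NANOG was 1991 on MF arrays, above the 1604 of PG-haESCs and the 1692 of ICSI ESCs. That of DNMT3B was 375.9 on MF arrays, against 17704 and 12025. The summed signal of 11 fibroblast and feeder markers was 5639 to 44351 on PG-haESC arrays, 6591 to 140915 on ICSI ESC arrays, with MES1 the highest, and 201009 to 202827 on MF arrays. The summed signal of 10 epidermal markers was 3366 to 3876 on PG-haESC arrays, 3940 to 4994 on ICSI ESC arrays and 326082 to 329235 on MF arrays. The MF arrays thus held epidermal as well as fibroblast markers, and they are called labelled fibroblasts here.

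FGF ligands bind receptor tyrosine kinases together with heparan sulfate proteoglycans, and the active receptor switches on the RAS, RAF, MEK and ERK kinase cascade. ERK then induces genes that damp its own pathway, among them the Sprouty (SPRY) and SPRED proteins, which act upstream of ERK, and dual-specificity phosphatases (DUSPs), which remove phosphate from ERK and related kinases. FGF2 is a standard supplement in the culture of human pluripotent stem cells, and in the mouse FGF4 made by ESCs drives ERK activity that readies them for differentiation. ETV4 belongs to the PEA3 group of ETS transcription factors, whose transcription follows FGF activity in many embryonic tissues.

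FGF2, SPRY4, DUSP5 and ETV4 were higher in both kinds of ESC than in labelled fibroblasts, and none of the 6 genes passed the test between PG-haESCs and ICSI ESCs. Fold changes are differences of log2 MAS5 signal fitted with limma with line as a random block, and an adjusted p under 0.05 was called. The block changes the weight of arrays that share a line, so fitted differences can depart from the ratio of the geometric means. In such whole populations, fewer cells of a type and less RNA per cell cannot be told apart. DUSP5 and SPRED2 were the members whose PG-haESC signals all lay below those of the ICSI ESCs, with differences that did not survive adjustment over all probe sets.

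FGF2 encodes a secreted ligand of FGF receptors. On the PG-haESC arrays its signal was 797.6 and 440.8 in MPH1 at passages 8 and 11, 715.9 and 1028 in MPH1 at passages 7 and 9, and 918.1 in MPH2. The ICSI ESC arrays read 1662 in MES1, 703.1 in MES2 and 908.2 in MES3, and the labelled fibroblasts read 85.9 and 64.95. Every ESC array was thus above both labelled fibroblast arrays, which lay below their array medians, while the ESC groups overlapped. PG-haESCs had a geometric mean of 750.1 (SD 0.47 log2 units, n = 5) against 1020 in ICSI ESCs (SD 0.64, n = 3), a log2 difference of -0.40 ± 0.38 (SE; 95% interval -1.23 to 0.43; limma adjusted p = 0.956). The highest ESC signal came from MES1, the array with the highest feeder and fibroblast marker sum, and the part of those cells in it was not tested. Without MES1 the difference was -0.07. Against labelled fibroblasts FGF2 was at least 6.48-fold higher in PG-haESCs (limma adjusted p = 0.000145) and at least 8.82-fold higher in ICSI ESCs (limma adjusted p = 7.03e-05). These folds are lower bounds because the dimmer group was set at its array medians.

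FGF4 encodes a second ligand, and it was dim on every array. PG-haESCs read 179.6 and 370.1 in MPH1 at passages 8 and 11, 169.7 and 96.8 in MPH1 at passages 7 and 9, and 54.0 in MPH2. ICSI ESCs read 89.0 in MES1, 55.7 in MES2 and 52.6 in MES3, and labelled fibroblasts read 8.08 and 40.1. Its signal passed the array median on 4 of 5 PG-haESC arrays, on 0 of 3 ICSI ESC arrays and on 0 of 2 labelled fibroblast arrays. The 3 passage 4 arrays, MPH2, MES2 and MES3, were the lowest of the 8 ESC arrays, and passage and line cannot be told apart here. The PG-haESC geometric mean was 142.6 (SD 1.04 log2 units, n = 5) and that of ICSI ESCs 63.9 (SD 0.42, n = 3), with overlapping ranges and a log2 difference of 0.95 ± 0.83 (95% interval -0.84 to 2.75; limma adjusted p = 0.941). Against labelled fibroblasts the log2 difference was 2.78 ± 1.01 for PG-haESCs (limma adjusted p = 0.0506) and 1.83 ± 1.01 for ICSI ESCs (limma adjusted p = 0.195). The first of these was called in 12 of the 24 alternative settings that gave a value. With all low signals set to the array median, it was 0.26.

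**Figure D1:**
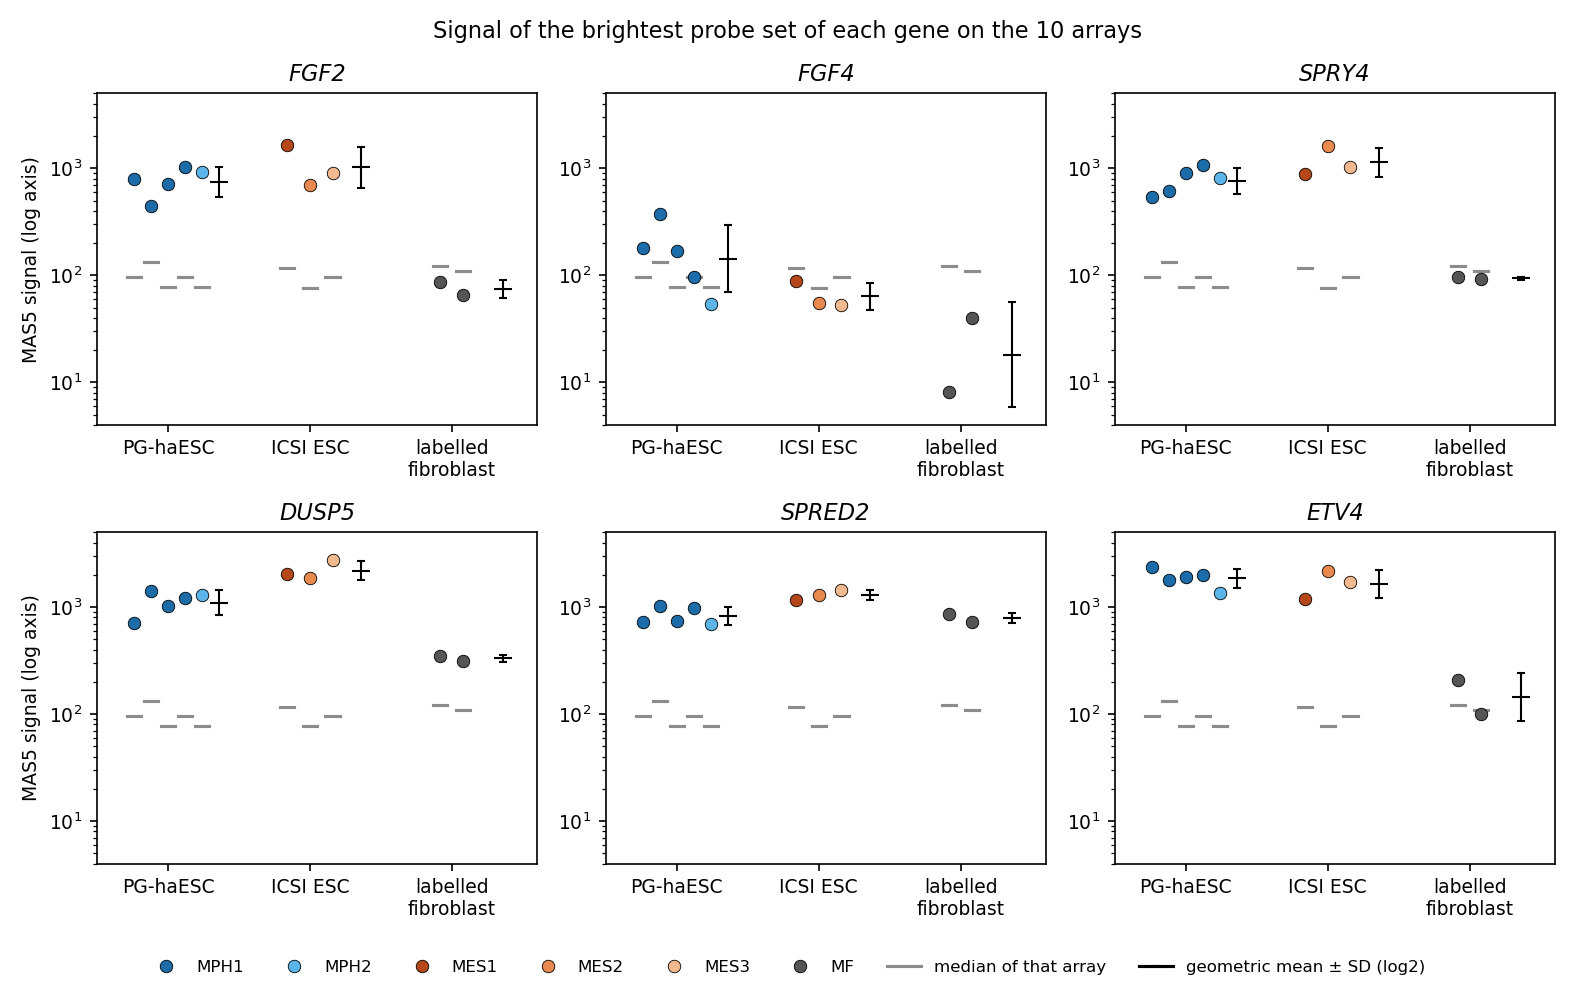
MAS5 signal (log axis) of the brightest probe set of each of the 6 genes, with 1 point per array, in PG-haESCs (5 arrays), ICSI ESCs (3 arrays) and labelled fibroblasts (2 arrays); colours mark the lines, black marks with bars are geometric means with SD on the log2 scale and grey ticks are array medians. FGF2, FGF4, SPRY4, DUSP5 and ETV4 lay lower on both labelled fibroblast arrays than on any ESC array, and SPRED2 did not.

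SPRY4 is a Sprouty protein that restrains RAS-ERK signalling downstream of growth factor receptors. Its signal was 536.7 and 614.0 in MPH1 code M1, 911.9 and 1070 in MPH1 code M2 and 813.7 in MPH2. ICSI ESCs read 886.6 in MES1, 1609 in MES2 and 1029 in MES3, and labelled fibroblasts read 95.9 and 92.0. All ESC arrays stood above both labelled fibroblast arrays, and the ranges of the ESC groups overlapped. PG-haESCs averaged 764.7 (geometric mean; SD 0.41 log2 units, n = 5) and ICSI ESCs 1137 (SD 0.45, n = 3), a log2 difference of -0.56 ± 0.32 (95% interval -1.25 to 0.13; limma adjusted p = 0.83). SPRY4 was at least 6.61-fold higher in PG-haESCs (limma adjusted p = 8.48e-05) and at least 9.82-fold higher in ICSI ESCs (limma adjusted p = 2.73e-05) than in labelled fibroblasts.

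DUSP5 encodes a nuclear phosphatase that acts on ERK. It read 705.2 and 1412 in MPH1 code M1, 1021 and 1222 in MPH1 code M2 and 1303 in MPH2. It read 2038 in MES1, 1880 in MES2 and 2760 in MES3, and 351.0 and 312.0 in labelled fibroblasts. The 3 groups did not overlap, with ICSI ESCs highest, PG-haESCs between and labelled fibroblasts lowest. PG-haESCs had a geometric mean of 1101 (SD 0.40 log2 units, n = 5) against 2195 in ICSI ESCs (SD 0.29, n = 3). The fitted level was 1.94-fold lower in PG-haESCs, with a log2 difference of -0.96 ± 0.28 (95% interval -1.56 to -0.36), an unadjusted p of 0.0045 and a limma adjusted p of 0.239. Without MES1 it was -1.03. Over 25 alternative settings it stayed between -1.1 and -0.79, and its adjusted p ran from 0.0566 to 0.748. DUSP5 was 3.41-fold higher in PG-haESCs (limma adjusted p = 0.00149) and 6.63-fold higher in ICSI ESCs (limma adjusted p = 7.38e-05) than in labelled fibroblasts, which averaged 330.9 (SD 0.12 log2 units, n = 2).

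SPRED2 encodes a membrane-associated inhibitor of RAS-ERK signalling. Its brightest probe set read 729.8 and 1029 in MPH1 code M1, 739.7 and 985.0 in MPH1 code M2 and 696.0 in MPH2. It read 1176 in MES1, 1304 in MES2 and 1447 in MES3, and 853.3 and 731.1 in labelled fibroblasts. ICSI ESCs were above both other groups without overlap, whereas the PG-haESC range spanned that of the labelled fibroblasts. The PG-haESC geometric mean was 824.5 (SD 0.27 log2 units, n = 5) against 1304 in ICSI ESCs (SD 0.15, n = 3). The log2 difference was -0.70 ± 0.22 (95% interval -1.17 to -0.23), 1.62-fold lower in PG-haESCs, with an unadjusted p of 0.0069 and a limma adjusted p of 0.303. Without MES1 it was -0.75. Against labelled fibroblasts the log2 difference was 0.03 ± 0.26 for PG-haESCs (95% interval -0.54 to 0.59; limma adjusted p = 0.955). For ICSI ESCs it was 0.72 ± 0.26 (95% interval 0.15 to 1.3; limma adjusted p = 0.0529), a result that was called in 7 of 25 alternative settings. The other tested SPRED2 probe set was dim, at 8.24 to 87.2 in PG-haESCs, 15.2 to 108 in ICSI ESCs and 16.7 to 56.2 in labelled fibroblasts. It gave -1.06 ± 1.15 for PG-haESCs minus ICSI ESCs on the log2 scale, and its interval included that of the brighter one.

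ETV4 was the member with the closest levels in the ESC groups. Its brightest probe set read 2370 and 1792 in MPH1 code M1, 1927 and 2008 in MPH1 code M2 and 1340 in MPH2. It read 1198 in MES1, 2165 in MES2 and 1707 in MES3, and 207.2 and 99.7 in labelled fibroblasts. The ESC groups overlapped, and both stood clear of the labelled fibroblasts. PG-haESCs had a geometric mean of 1856 (SD 0.30 log2 units, n = 5) and ICSI ESCs 1642 (SD 0.43, n = 3), a log2 difference of 0.11 ± 0.32 (95% interval -0.58 to 0.80; limma adjusted p = 0.989). ETV4 was 12.3-fold higher in PG-haESCs (limma adjusted p = 2.19e-05) and 11.4-fold higher in ICSI ESCs (limma adjusted p = 3.19e-05) than in labelled fibroblasts. Its second probe set was also higher in both, at least 4.2-fold in PG-haESCs (limma adjusted p = 0.00182) and at least 3.47-fold in ICSI ESCs (limma adjusted p = 0.00259). On that probe set PG-haESCs read 696.9 and 525.1 in MPH1 code M1, 493.3 and 502.6 in MPH1 code M2 and 300.3 in MPH2, so MPH2 was the lowest PG-haESC array on both.

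**Figure D2:**
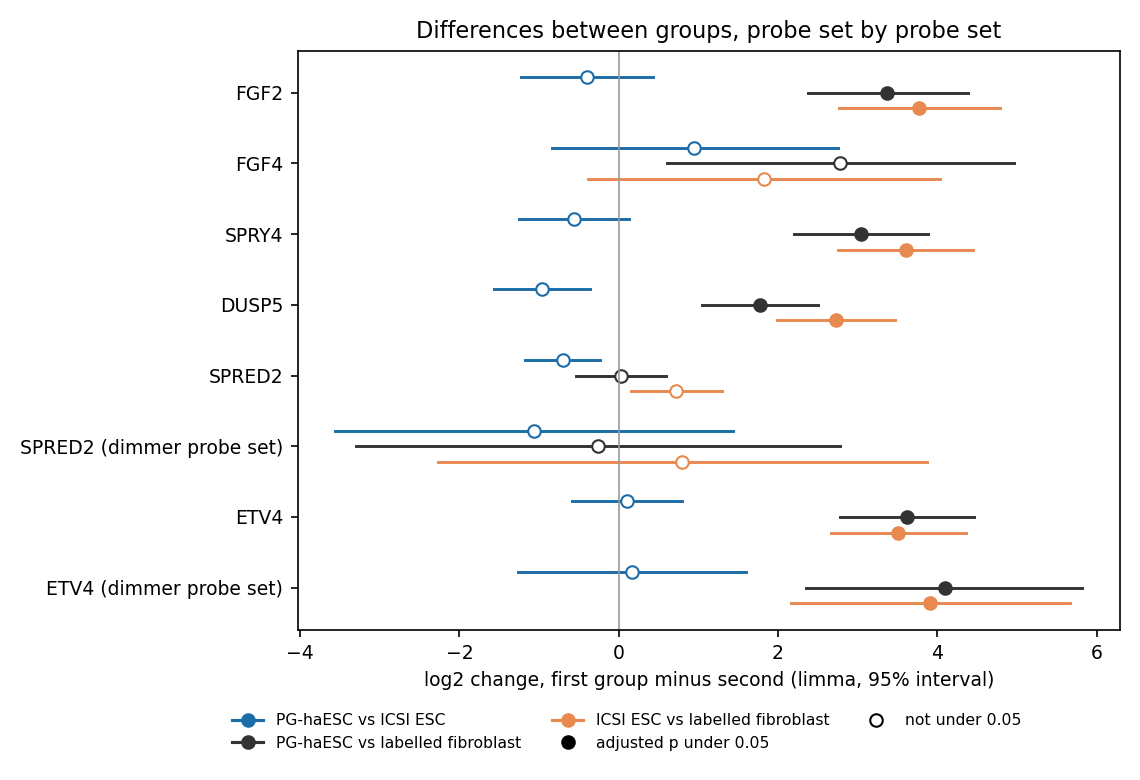
Log2 change with its 95% interval (limma) for each of the 8 tested probe sets, in the 3 comparisons between groups; filled points have an adjusted p under 0.05. No interval of PG-haESCs minus ICSI ESCs is filled, while FGF2, SPRY4, DUSP5 and both ETV4 probe sets are filled in both comparisons with labelled fibroblasts.

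Counted over genes, 0 of 6 members passed the test between PG-haESCs and ICSI ESCs, where 0.574% of the 11676 genes tested were called. At an unadjusted p under 0.05 there were 2 members, DUSP5 and SPRED2, beside 8.76% of all genes. The same 2 were the members lower in PG-haESCs without overlap, as were 3.22% of all genes. The median log2 change of all 6 members was -0.48, beside -0.02 for all genes. Against labelled fibroblasts 4 of 6 members were called higher in PG-haESCs, beside 23.0% of all genes, and 5 of 6 were higher without overlap, beside 33.9%. The same 4 members were called higher in ICSI ESCs, beside 22.5% of all genes, and 6 of 6 were higher without overlap, beside 36.6%. Both counts without overlap include FGF4. It passed the array median on 4 of 5 PG-haESC, 0 of 3 ICSI ESC and 0 of 2 labelled fibroblast arrays. With low signals set to the array median, its log2 difference for ICSI ESCs was -0.28. Both comparisons with labelled fibroblasts share the MF arrays.

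The feedback inhibitors were read as a wider group of 20 genes, of which 12 had a tested probe set, the 3 members included. Between PG-haESCs and ICSI ESCs 0 of the 12 were called, beside the 0.574% of all genes. At an unadjusted p under 0.05 there were 4, the members DUSP5 and SPRED2 among them, beside 8.76% of all genes. The median log2 change of the 12 was -0.40 and 11 of 12 lay below 0, beside a median of -0.02 and 52.1% below 0 for all genes. These values include the 3 members, at -0.56 (SPRY4), -0.96 (DUSP5) and -0.70 (SPRED2). Members were chosen with earlier results of these data known, and no median was taken without them. The 1 gene above 0 was DUSP8, with 0.50 ± 0.79. It was dim, at 53.6 to 233 in PG-haESCs and 20.2 to 178 in ICSI ESCs. With low signals set to the array median 12 of 12 lay below 0. Beside DUSP5 and SPRED2, the lowest p-values were those of DUSP1, a phosphatase of several stress- and growth-activated kinases, and RASA2, a GTPase-activating protein of RAS. DUSP1 read 1129 to 4328 in PG-haESCs and 3607 to 5294 in ICSI ESCs, a log2 difference of -1.04 ± 0.37 (limma adjusted p = 0.44). RASA2 had a log2 difference of -0.50 ± 0.23 (limma adjusted p = 0.672). Without MES1, 8 of the 12 lay below 0, with a median of -0.43. No probe set carried the symbol DUSP6 or SPRED1 alone.

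Against labelled fibroblasts the feedback inhibitors moved in both directions. Of 12, 4 were called higher and 2 lower in PG-haESCs, and 5 higher and 2 lower in ICSI ESCs, beside 23.0% higher and 17.2% lower, and 22.5% higher and 17.0% lower, for all genes. SPRY2 was higher in both ESC groups (log2 1.53 in PG-haESCs and 1.70 in ICSI ESCs). IL17RD, a membrane antagonist of FGF receptor signalling, was at least 1.8-fold higher in PG-haESCs and at least 2.2-fold higher in ICSI ESCs. DUSP4, an ERK phosphatase, was at least 2.99-fold higher in ICSI ESCs, a call lost in 14 of 25 alternatives. SPRY1 was lower in both (-1.61 and -1.55). DUSP1 was also lower, with a geometric mean of 1906 in PG-haESCs (limma adjusted p = 0.000105) and 4412 in ICSI ESCs (limma adjusted p = 0.00155) against 22639 in labelled fibroblasts. Within the Sprouty and DUSP families, SPRY2, SPRY4 and DUSP5 were thus higher in ESCs while SPRY1 and DUSP1 were lower, with the same signs after centring on array medians and after quantile normalization. Under centring the calls of SPRY1 were lost (limma adjusted p = 0.0907 for PG-haESCs and 0.109 for ICSI ESCs).

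The list of ERK-responsive transcription factors and targets, to which ETV4 belongs, had 15 tested genes of 23. Between PG-haESCs and ICSI ESCs 0 were called, beside 0.574% of all genes, and 0 had an unadjusted p under 0.05, beside 8.76%. The median of the 15 was -0.37, with 12 below 0, beside a median of -0.02 and 52.1% below 0 for all genes. Without MES1 the median became -0.08, with 9 below 0. FOS, an immediate early gene of the AP-1 factor, read 443.5, 344.2, 1016, 1282 and 3448 in PG-haESCs and 2531, 2194 and 2231 in ICSI ESCs, so its spread among PG-haESC arrays covered the ICSI ESC values. Its log2 difference was -1.04 ± 0.64 (limma adjusted p = 0.858). Against labelled fibroblasts 2 genes were called higher and 2 lower in each ESC group, beside 23.0% higher and 17.2% lower of all genes in PG-haESCs and 22.5% and 17.0% in ICSI ESCs. ETV1, another PEA3 factor, was higher (log2 2.58 in PG-haESCs and 2.74 in ICSI ESCs), beside ETV4. FOS was lower (-3.21 and -2.17), and so was ZFP36, an immediate early regulator of mRNA decay (-2.50 and -3.26). The call of FOS in ICSI ESCs (limma adjusted p = 0.0497) was lost in 12 of 25 alternatives. ZFP36 was dim in ESCs, at 66.4 to 180 in PG-haESCs and 53.1 to 79.8 in ICSI ESCs, where array medians were 76.8 to 133. Its calls against labelled fibroblasts were kept in all 25 alternatives. Between the ESC groups ZFP36 had a log2 difference of 0.76 ± 0.47 (limma adjusted p = 0.858), which was 0.25 with low signals set to the array median.

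**Figure D3:**
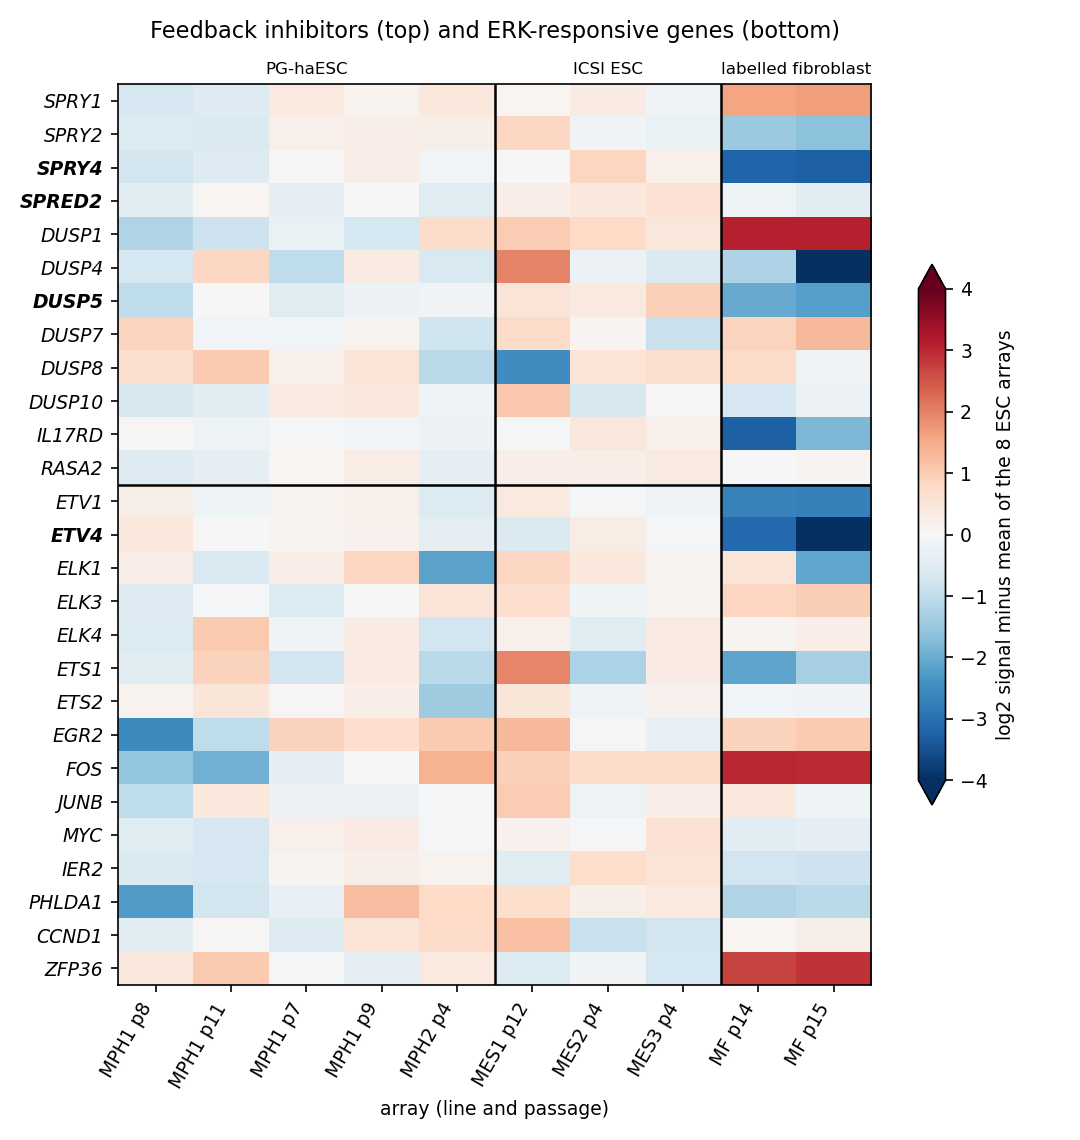
Log2 signal of 12 feedback inhibitors (upper block) and 15 ERK-responsive genes (lower block) on each of the 10 arrays, minus the mean of the 8 ESC arrays; the members are in bold and the colour scale ends at 4 in each direction. SPRY4, DUSP5 and ETV4 are low and DUSP1, FOS and ZFP36 high on both labelled fibroblast arrays, and both MPH1 code M1 arrays (the leftmost columns) are low for SPRY1, SPRY2, SPRY4, EGR2 and FOS.

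Feedback and immediate early genes also varied within MPH1. Both code M1 arrays lay below both code M2 arrays for 6 of 12 feedback inhibitors (SPRY1, SPRY2, SPRY4, DUSP1, DUSP10 and RASA2), beside 17.2% of all genes, and above them for DUSP8 alone, beside 23.2%. The median of code M1 minus code M2 was -0.35 over the feedback inhibitors and 0.05 over all genes. The same order held for 5 of the 15 targets (EGR2, FOS, MYC, IER2 and PHLDA1), beside 17.2% of all genes. The opposite order held for ZFP36 alone, beside 23.2%. EGR2 read 300.5 and 870.8 under code M1 and 3312 and 2832 under code M2. Of the 6 members, 1 (SPRY4) was lower under code M1 without overlap, beside 17.2% of all genes. Likewise 1 (FGF4) was higher there, beside 23.2%, so the members were near or below these shares. With 2 arrays per code no test was made, and the labels do not say what the codes stand for.

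The other FGF ligands and the receptors were compared for context. FGF16, a secreted ligand of the FGF9 group, read 519.6, 640.8, 630.5 and 850.8 in MPH1 and 235.2 in MPH2, against 150.8, 122.3 and 125.9 in the 3 ICSI ESC lines. All PG-haESC arrays were higher, by a log2 difference of 1.83 ± 0.40, with a limma adjusted p of 0.0829. It was called in 4 of 25 alternatives, among them the code as block (0.0426), passage as covariate (0.0451) and without MPH2 (0.0124), and its adjusted p was 0.642 with lines averaged. Against labelled fibroblasts FGF16 was at least 4.58-fold higher in PG-haESCs. FGF21, an endocrine FGF, was the opposite case, with lower signal on every PG-haESC array than on any ICSI ESC array. Its log2 difference was -1.14 ± 0.55 (limma adjusted p = 0.717). FGF21 was dim, at 38.1 to 98.2 in PG-haESCs and 115.5 to 139.0 in ICSI ESCs, where array medians were 76.8 to 133. With low signals set to the array median the difference was -0.48. FGF19, also endocrine, was higher in both ESC groups than in labelled fibroblasts (at least 1.72-fold in PG-haESCs and at least 2.32-fold in ICSI ESCs). Of the 10 ligands tested, 3 were called higher and 0 lower in PG-haESCs than in labelled fibroblasts, beside 23.0% and 17.2% of all genes. In ICSI ESCs 2 were called higher and 0 lower, beside 22.5% and 17.0%. FGF1 and FGF8 had no probe set with that symbol alone.

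Of 16 tested receptors and co-receptors, 3 were called higher and 6 lower in PG-haESCs than in labelled fibroblasts, and 4 higher and 6 lower in ICSI ESCs, beside the all-gene shares of 23.0% and 17.2% in PG-haESCs and 22.5% and 17.0% in ICSI ESCs. The heparan sulfate proteoglycans GPC4 (log2 2.97 in PG-haESCs and 2.71 in ICSI ESCs) and GPC3 (2.54 and 1.2) were higher, and SDC2 was at least 2.97-fold higher in ICSI ESCs. GPC3 lost its call in 1 of 25 alternatives for each group, and its lowest log2 differences were 0.64 in PG-haESCs and 0.77 in ICSI ESCs. FGFR4 was also called higher (2.21 and 2.00), but its call was lost in 6 of 24 alternatives for PG-haESCs and in 13 of 24 for ICSI ESCs. Without the first labelled fibroblast array its log2 difference was 1.18 and 0.96, and without the second 3.26 and 3.04. FGFR2 (-1.83 and -1.90), FGFR3 (-2.11 and -2.77) and the proteoglycan SDC1 (-3.29 and -3.31) were lower. So were SDC4 (-1.26 and -0.68) and FLRT2 (-1.89 and -1.71), with FLRT3 lower in PG-haESCs (-1.57) and the co-receptor KLB at least 2.22-fold lower in ICSI ESCs. SDC4 lost its call in 1 of 25 alternatives for PG-haESCs and in 8 for ICSI ESCs, and FLRT2 in 3 and 4. FLRT3 lost its call in 6 of 25 and KLB in 5 of 24. FGFR2, FGFR3 and SDC1 are also expressed by epidermal cells, whose markers were high on the MF arrays, and the part of such cells in these differences was not tested. Between PG-haESCs and ICSI ESCs 1 of the 72 pathway genes was called, GPC3, beside 0.574% of all genes. This glypican read 1404 to 1792 in PG-haESCs and 479.8 to 789.4 in ICSI ESCs. Its log2 difference was 1.34 ± 0.22 (limma adjusted p = 0.0254). With the mean of all its probe sets the difference was -0.13. SDC4 had the next smallest p among the receptors and co-receptors, with a log2 difference of -0.58 ± 0.18 (limma adjusted p = 0.32).

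The RAS-ERK cascade itself had 19 tested genes and 0 were called between PG-haESCs and ICSI ESCs, beside 0.574% of all genes. The median log2 change of the 19 was -0.14, beside -0.02 for all genes. The smallest p-values were those of the scaffold gene KSR1 (-0.54 ± 0.21; limma adjusted p = 0.542) and HRAS (-0.41 ± 0.29; limma adjusted p = 0.897). Against labelled fibroblasts 4 were called higher and 4 lower in PG-haESCs (all genes 23.0% and 17.2%), and 4 higher and 2 lower in ICSI ESCs (all genes 22.5% and 17.0%). MAP2K1, which encodes the ERK kinase MEK1, was higher (1.21 and 1.09), and MAPK3, which encodes ERK1, was lower (-0.86 and -0.90). BRAF (0.88 and 0.97) and the adaptor gene SHC1 (0.83 and 0.85) were also higher in both ESC groups, and SOS2, an exchange factor of RAS, was lower in both (-1.12 and -0.98). In PG-haESCs RPS6KA1 was called higher (0.95) and HRAS (-1.05) and KSR1 (-1.0) lower, and in ICSI ESCs the adaptor gene GRB2 was called higher (0.94). The calls of RPS6KA1 and HRAS were lost in 12 and 11 of 25 alternatives. Those of BRAF were lost in 7 for PG-haESCs and 6 for ICSI ESCs, and those of MAPK3 in 6 and 5. The call of KSR1 was lost in 4 and that of GRB2 in 3. SHC1 lost its call in 1 for PG-haESCs and 2 for ICSI ESCs, where its lowest log2 difference was 0.17. SOS2 lost its call in 2 for each group, and MAP2K1 kept its calls in all 25.

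**Figure D4:**
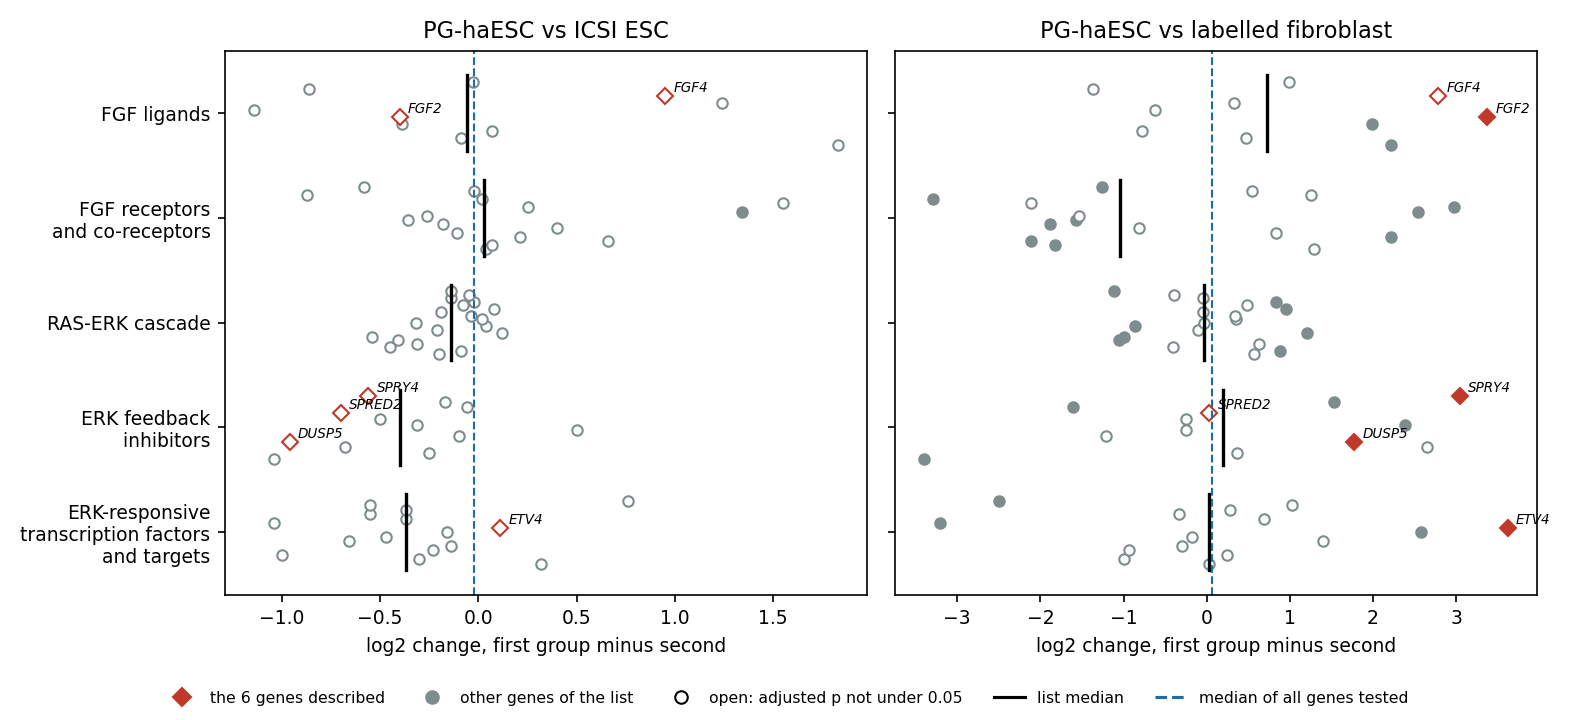
Log2 change of each tested gene of the 5 pathway lists, in PG-haESCs minus ICSI ESCs (left) and PG-haESCs minus labelled fibroblasts (right); the 6 members are red diamonds, filled marks have an adjusted p under 0.05, black bars are list medians and the dashed line is the median of all genes. On the left the feedback inhibitors, members included, have a median of -0.40 and 1 gene of 72, GPC3, is filled, beside 0.574% of all genes called. On the right 16 are filled above 0 and 14 below, beside 23.0% and 17.2% of all genes.

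The genes closest to each member were found by the root mean square difference of centred log2 signals. Over all 10 arrays the closest to FGF2 were GCLC (0.38), NECTIN3 (0.38) and BCAT1 (0.40), and the closest to ETV4 were ORC1 (0.15), PIMREG (0.22) and LOC720437 (0.24). SPRY4 was closest to EGR4 (0.27), then DSCC1 (0.29) and WEE1 (0.31). Over the same arrays the closest to FGF4 were CBL (0.46), TNFSF11 (0.53) and KLHL31 (0.54), and the closest to DUSP5 were LOC709680 (0.27), HACD1 (0.30) and DNAJB5 (0.31). SPRED2, whose own root mean square of 0.36 was the smallest of the 6 members, was closest to CLCN2 (0.16), WDR1 (0.17) and POLR3D (0.17). Each of these distances includes the contrast with labelled fibroblasts. Over the 8 ESC arrays alone, SPRY4 was closest to DSCC1 (0.15), ITGA6 (0.16) and CEP120 (0.17), and DUSP5 to ITPRID2 (0.15), PSD3 (0.21) and MAFF (0.23). SPRED2 was then closest to SP4 (0.13), TMEM222 (0.14) and HROB (0.14), and ETV4 to HEATR1 (0.09), MRPS9 (0.10) and PMPCA (0.11). FGF2 was closest to ATP13A3 (0.20), PRR36 (0.21) and SNX29 (0.21), and FGF4 to SOSTDC1 (0.30), RC3H1 (0.37) and LOC722116 (0.37).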

How the data were processed

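RNA of 10 samples was measured on 1-colour Affymetrix Rhesus Macaque arrays. Per the labels' protocols, TRIZOL was used for extraction and Affymetrix's 3' IVT Express kit for amplification and biotin labelling. The deposited values are linear signal intensity that the authors computed with MAS5, per the submitters' processing notes. The MAS5 release was not stated. Mean signals without the top and bottom 2% of probe sets were equal after rounding, so arrays had been scaled. Array medians were 76.8 to 133. No detection calls were used.

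Of 52865 probe sets, 158 controls were left out. The 34139 above their array median on at least 2 arrays were tested, on log2 signal, with limma 3.58.1 in R 4.3.3, in 1 model of all 10 arrays with line as a random block (correlation 0.286), an intensity trend and two-sided tests. P-values were adjusted by Benjamini-Hochberg over all 34139. Probe sets were named from the platform annotation given with the series (24956 probe sets with 1 symbol, 361 with several, 27390 with none), and the probe set with the highest mean log2 signal stood for a gene. Where a dimmer group lay at or below its array medians throughout, its signals were raised to them and the fold written as "at least". Geometric means and these folds used plain means over arrays, without the block.

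Members, lists and tests were chosen with earlier results of these data known. Beside the members, genes were named when called, up to 6 per list and direction by smallest p, and otherwise the 2 of smallest p per list, plus the 3 closest genes per member. DUSP8, DUSP1 between the ESC groups, RASA2, EGR2 and genes ordered by code were named after their values were seen. Alternatives concerned line and code, offset, normalization, filter, variance model, passage, probe sets, the groups fitted and each array left out, and leaving out the 2 arrays of highest spike-in signal or raising low signals to the array median, both chosen after seeing the data. The fit was tested on simulated data.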

Additional observations from a re-analysis of the deposited data

How the results depend on the processing

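No member was called between PG-haESCs and ICSI ESCs under any of 25 alternatives, and 4 to 5 were called in each comparison with labelled fibroblasts, FGF2, SPRY4, DUSP5 and ETV4 in all 25. The log2 differences of PG-haESCs minus ICSI ESCs ran from -0.87 to -0.60 for SPRED2 (adjusted p 0.104 to 0.974), -0.74 to -0.31 for SPRY4, -0.67 to 0.11 for FGF2 and -0.09 to 0.31 for ETV4. Signs turned for FGF2 (0.11) and ETV4 (-0.09) without the 2 arrays of highest spike-in signal, for ETV4 (-0.08) without MES1 and for GPC3 (-0.13) with the mean of all probe sets. GPC3 lost its call in 8 further alternatives. SPRED2 in PG-haESCs minus labelled fibroblasts turned to -0.03 with lines averaged, -0.11 with the mean of probe sets and -0.04 without the spike-in arrays. It turned to -0.05 without MPH1 passage 11, -0.02 without MPH1 passage 9 and -0.08 without the second labelled fibroblast array, within a leave-one-out range up to 0.14. FGF4 in ICSI ESCs minus labelled fibroblasts turned to -0.28 with low signals set to the array median, and it gave no value under the 75th percentile filter. The causes were not tested.

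All probe sets called numbered 154 (8 to 475 over the alternatives) for PG-haESCs against ICSI ESCs, 11275 (6294 to 15092) for PG-haESCs against labelled fibroblasts and 11150 (7576 to 13713) for ICSI ESCs against labelled fibroblasts. Centring on array medians shifted the median of all probe sets by 0.33 and 0.28 in these comparisons with labelled fibroblasts and moved the share of calls that were higher to 63.7% and 61.6%, beside 51.4% and 50.5%. Between the ESC groups it left 14 calls, 21.4% of them higher, beside 81.2%. The feedback median, with the members included, stayed between -0.55 (75th percentile filter) and -0.35 (centred on array medians) over the alternatives. No paired analysis was possible because replicate numbers follow accession order and pair no samples across groups.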
